A study of Rattus norvegicus with 10 samples.

Results

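The growth hormone and insulin-like growth factor (IGF) axis was examined in rat liver through 10 genes: the growth hormone receptor Ghr, its signal transducer Stat5b, the feedback inhibitors Socs2 and Cish, the hormone Igf1, its carrier subunit Igfals and the binding proteins Igfbp1, Igfbp2, Igfbp3 and Igfbp4. A probe was assigned to a gene when the transcript accession printed for it belonged to that gene. All 10 genes were found in this way, by 15 of the 40945 probes with a value on every array, which carried 13426 gene symbols in all. Ghr had 3 probes, Igf1, Igfbp3 and Igfbp4 had 2 each, and the other 6 genes had 1. A gene with several probes is represented by its brightest probe, and its other probes are given beside it.

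Liver RNA came from 10 male rats of the Wistar strain in 3 groups. The control group held 3 rats that received neither drug nor radiation, and the TBI group held 3 rats exposed to total-body irradiation at 6.5 Gy. In the MASM + TBI group, 4 rats received MASM, a derivative of the alkaloid matrine, by gavage at 30 mg/kg a day on 3 successive days and then the same irradiation. All livers were taken at 24 h, and each rat had an array of its own. The labels give the dose of 6.5 Gy, and the methods of the study give a different one. No age is given in the sources used here. Rats given MASM without irradiation were not analysed here, so a difference between MASM + TBI and TBI describes MASM in irradiated animals at 1 time point only. The comparisons address how the liver transcript levels of the axis stood after irradiation and whether they stood elsewhere when MASM had been given first.

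In the liver, growth hormone binds its receptor on hepatocytes, the attached kinase JAK2 phosphorylates STAT5 proteins, and these enter the nucleus and raise transcription of Igf1, Igfals, Socs2 and Cish. Circulating IGF-1 comes largely from hepatocytes and travels in a complex with IGFBP-3 and the acid-labile subunit that Igfals encodes. IGFBP-1 belongs to another branch of control, since insulin represses its gene and fasting and glucocorticoids raise it.

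Signals are given as log2 of the processed spot brightness after quantile normalization, so that a difference of 1 is a factor of 2 on the linear scale. The scanner marked a share of the gene spots as clearly brighter than their background: 57.2% to 59.9% in the control group, 64.1% to 70.1% in the TBI group and 56.2% to 60.2% in the MASM + TBI group. By this mark 9 of the 10 genes were well above background on all 10 arrays. Igfbp2 was the exception, with 2 of 3 control arrays, 3 of 3 TBI arrays and 4 of 4 MASM + TBI arrays. The arrays lay on 3 slides that were scanned separately. All controls shared slide 1 with rat 3 of the MASM + TBI group, the other rats of that group were together on slide 3, and slide 2 held TBI rats alone. Slide and group therefore cannot be told apart for the TBI rats, while MASM + TBI rat 3 can be set against the controls within slide 1. With 3 or 4 rats a group, the confidence intervals are wide.

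Across the axis, the irradiated livers had lower Igfals signal than the control livers in every rat, higher Igfbp1 signal in 6 of 7 rats, and in the rats given MASM lower Socs2 signal in every rat. Igfbp4 was also lower in each irradiated rat than in each control, by a smaller amount. None of these differences met the criterion for a call, which was a limma p below 0.05 after adjustment over all 40945 probes together with a change of at least 1.5-fold. Groups were likewise apart for 30.3% of all probes between TBI and control and for 18.3% between MASM + TBI and control. The share of all probes with every irradiated rat on the same side of the controls was not counted.

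Between TBI and control, limma called 0 of the 10 genes, against 4.5% of all probes. Counted by probe, 1 of the 15 member probes was called, a further probe of Ghr described below, and 0 of 15 in each of the other comparisons (2 of 15 for MASM + TBI against control and 1 of 15 for MASM + TBI against TBI unadjusted). At an unadjusted p below 0.05 with the same fold, limma called 2 of 10, Igfals and Igfbp1, against 12.6% of all probes. Between MASM + TBI and control, limma called 0 of 10 after adjustment (2.35% of all probes) and 2 of 10 at the unadjusted threshold, Igfals and Socs2 (8.06%). For MASM + TBI against TBI the counts were 0 of 10 after adjustment (1.39%) and 1 of 10 unadjusted, Socs2 (7.98%). The methods' t-test with the same adjustment called 0 of the 10 genes in each of the 3 comparisons, but it called only 10, 28 and 3 of the 40945 probes, so its 0 says little about any gene or list here. At an unadjusted p, an alternative chosen after seeing the data, the same test called 1 (Igfbp1), 2 (Igfals and Socs2) and 0 of the 10 genes, and 2900, 2354 and 1649 of all probes. A p that misses the threshold does not show that values did not differ.

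Groups did not overlap for 4 of the 10 genes between TBI and control, namely Igf1, Igfals, Igfbp1 and Igfbp4, where 30.3% of all probes had groups apart. The count was 3 of 10 between MASM + TBI and control, for Igfals, Socs2 and Igfbp4 (18.3% of all probes), and 1 of 10 between MASM + TBI and TBI, for Stat5b (18.5%). The median log2 difference over the 10 genes was -0.15 for TBI minus control, -0.11 for MASM + TBI minus control and 0.06 for MASM + TBI minus TBI. Over all probes the medians were -0.03, 0.00 and 0.04. Both comparisons with control use the same 3 control rats, so their values are given side by side and are not independent of each other.

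**Figure D1:**
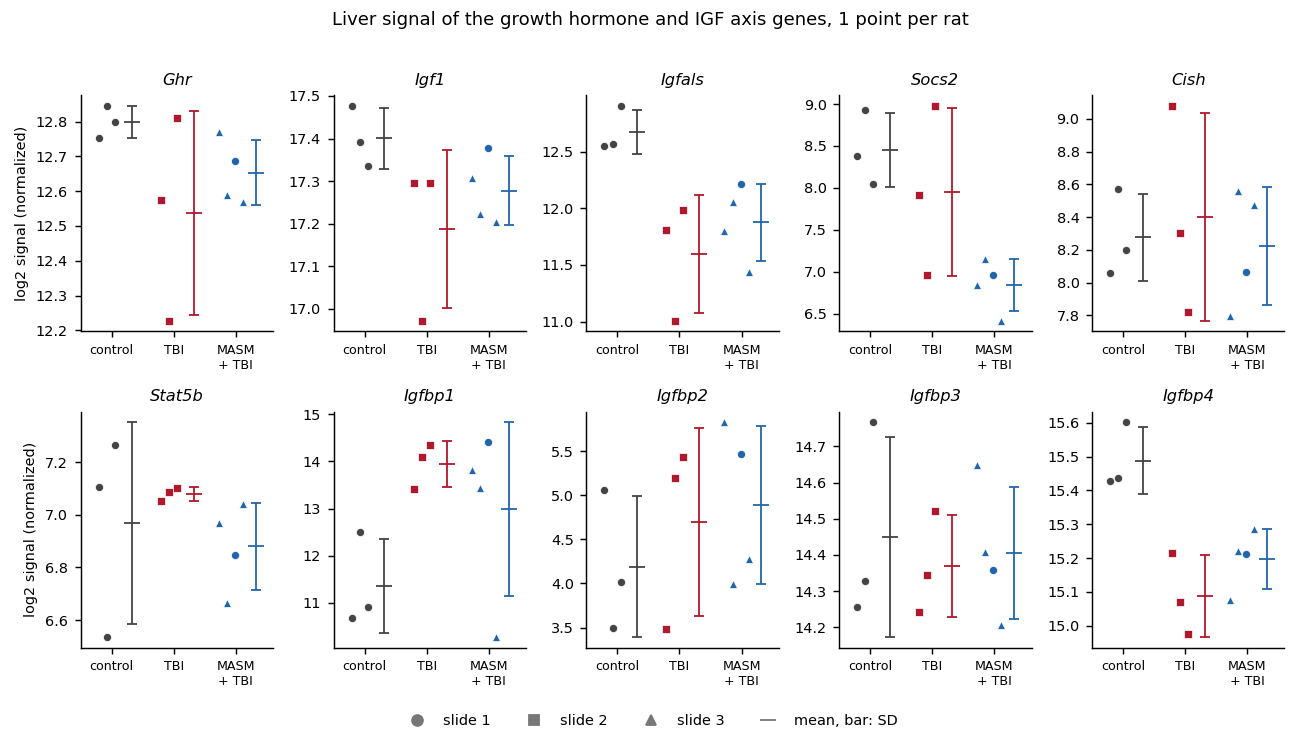
Normalized log2 signal (vertical axis) of the 10 genes in each rat, by group on the horizontal axis, with the mean and SD of each group beside the points and the slide shown by the symbol. The TBI and MASM + TBI rats lie below all control rats for Igfals, MASM + TBI rat 4 lies at 10.28 for Igfbp1, and each panel has its own vertical scale.

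Ghr encodes the growth hormone receptor, which in soluble form is also the growth hormone binding protein of plasma. Its brightest probe gave 12.75, 12.84 and 12.80 in control rats 1 to 3, 12.57, 12.23 and 12.81 in TBI rats 1 to 3, and 12.77, 12.59, 12.69 and 12.57 in MASM + TBI rats 1 to 4. TBI rats 1 and 2 were below the control range, TBI rat 3 was inside it, and the MASM + TBI rats ran from inside that range to just below it. The log2 difference was -0.26 (SE 0.14, adjusted p = 0.302 in limma) for TBI minus control and -0.15 (SE 0.13, adjusted p = 0.672) for MASM + TBI minus control, the latter 0.00 with arrays scaled to their 75th percentile. For TBI minus control the Ghr value was -0.11 without TBI rat 2 and -0.40 without TBI rat 3.

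The other probes of Ghr gave larger differences than the brightest probe. One, at 9.34, 9.33 and 9.60 in the control rats, read 8.96, 8.84 and 8.48 in the TBI rats and 8.91, 8.99, 8.84 and 8.80 in the MASM + TBI rats, so that every irradiated rat was below every control rat. For this probe the log2 difference was -0.66 (SE 0.14, adjusted p = 0.0305 in limma) for TBI minus control, which met the criterion for a call, and -0.54 (SE 0.13, adjusted p = 0.0654) for MASM + TBI minus control. That call held under 6 of 15 alternatives (log2 difference -0.76 to -0.52, adjusted p = 0.00689 to 0.274) and was lost, among others, without control rat 1 (0.0645), 2 (0.0634) or 3 (0.0988), TBI rat 2 (0.0582) or MASM + TBI rat 1 (0.0519), and without TBI rat 3, where -0.52 was under 1.5-fold. A further probe gave an intermediate difference, with 11.44, 11.27 and 11.08 in control rats, 11.07, 10.68 and 10.30 in TBI rats and 10.81, 11.06, 10.67 and 10.90 in MASM + TBI rats. Here too the irradiated rats were all below the controls, by a margin of 0.01 between the nearest TBI and control values, with a log2 difference of -0.58 (SE 0.20, adjusted p = 0.124) for TBI minus control. With the mean of the 3 probes taken as the value of the gene, the log2 difference for TBI minus control was -0.50 (adjusted p = 0.0268), below the 1.5-fold limit. The probes of Ghr thus differ in the size of the TBI difference and share its sign.

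Stat5b encodes the transcription factor that carries most of the growth hormone signal in male liver. It read 7.11, 6.54 and 7.27 in control rats, 7.05, 7.09 and 7.10 in TBI rats and 6.97, 6.66, 6.85 and 7.04 in MASM + TBI rats. The TBI values lay within 0.05 of each other and inside the control range, and the MASM + TBI rats were all below the TBI rats, with the nearest values 7.04 and 7.05. The log2 difference between MASM + TBI and TBI was -0.20 (SE 0.17, adjusted p = 0.595 in limma). Relative to control it was 0.11 for TBI and -0.09 for MASM + TBI, both smaller than the SD of 0.38 among the control rats.

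Socs2 encodes an inhibitor that is induced by growth hormone and, as part of a ubiquitin ligase, lowers the amount of its receptor. The signal was 8.38, 8.93 and 8.05 in control rats, 7.92, 6.96 and 8.97 in TBI rats, and 6.84, 7.15, 6.97 and 6.41 in MASM + TBI rats. All 4 MASM + TBI rats were below all 3 control rats, while the TBI rats spanned the range from the MASM + TBI rats to above the controls. The mean was 8.45 ± 0.44 (SD, n = 3) in control, 7.95 ± 1.01 (SD, n = 3) in TBI and 6.84 ± 0.31 (SD, n = 4) in MASM + TBI.

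For Socs2 the difference between MASM + TBI and control was the largest downward estimate among the 10 genes in that comparison, at -1.61 on the log2 scale (SE 0.44, 95% confidence interval -2.61 to -0.61, adjusted p = 0.0972 in limma). It corresponds to a 3.05-fold lower signal. For Socs2 with normexp background correction the difference was smaller, at -0.91. Within slide 1, MASM + TBI rat 3, at 6.97, minus the mean of the 3 controls was -1.49, and the other 3 rats of the group, on slide 3, gave -1.65. With slide as a fixed block the estimate equals the value within slide 1 (SE 0.42, adjusted p = 0.221), since slide 3 holds no control. The difference met the criterion for a call in 4 of the 21 settings tried, the one above included: with only the arrays of both groups (adjusted p = 0.0337), with slide as a random block (0.0375), without TBI rat 2 (0.0497) and without TBI rat 3 (0.0380), in a range over all settings from 0.0337 to 0.297. Relative to TBI the log2 difference of MASM + TBI was -1.11 (SE 0.44, adjusted p = 0.246), and it was -0.60 without TBI rat 3 and -1.60 without TBI rat 2. Between TBI and control it was -0.50 (SE 0.47, adjusted p = 0.554), and -0.01 without TBI rat 2.

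Cish encodes another inhibitor of the same family, also induced through STAT5. Signals were 8.06, 8.57 and 8.20 in control rats, 9.08, 8.30 and 7.82 in TBI rats and 7.79, 8.56, 8.06 and 8.47 in MASM + TBI rats. The groups overlapped throughout, and TBI rats 1 and 3 held the highest value and almost the lowest of all. The log2 differences were 0.13 (SE 0.33) for TBI and -0.05 (SE 0.31) for MASM + TBI relative to control, and the sign of each changed when a single rat was left out. TBI rat 3, the rat with the highest Socs2, thus had the lowest Cish of its group.

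Igf1 encodes IGF-1, the hormone through which the liver passes on much of the growth hormone signal. Its brightest probe read 17.48, 17.39 and 17.33 in control rats, 17.29, 16.97 and 17.29 in TBI rats and 17.31, 17.22, 17.38 and 17.20 in MASM + TBI rats. Every TBI rat was below every control rat, by 0.04 at the nearest values, and MASM + TBI rat 3 was inside the control range. The log2 difference was -0.21 (SE 0.11, 95% confidence interval -0.46 to 0.03, adjusted p = 0.266 in limma) for TBI and -0.12 (SE 0.10, adjusted p = 0.621) for MASM + TBI relative to control. TBI rat 2 weighed most, since the first of these was -0.11 without it, and within slide 1 the second was -0.02. With arrays scaled to their 75th percentile they were -0.30 and -0.11. This probe lies near the top of the scale, where quantile normalization constrains the values, and whether that narrowed its differences was not tested.

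A second Igf1 probe, made to another transcript of the gene, gave 14.49, 14.08 and 14.16 in control rats, 13.63, 13.31 and 14.28 in TBI rats and 13.91, 13.54, 14.23 and 13.77 in MASM + TBI rats. TBI rat 3 and MASM + TBI rat 3 were inside the control range and the other irradiated rats were below it. Its log2 difference was -0.50 (SE 0.26, adjusted p = 0.290) for TBI and -0.38 (SE 0.25, adjusted p = 0.513) for MASM + TBI relative to control.

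Igfals encodes the acid-labile subunit, a protein made by hepatocytes under growth hormone that keeps IGF-1 and IGFBP-3 in the circulation. The control rats read 12.55, 12.57 and 12.90, the TBI rats 11.81, 11.01 and 11.98, and the MASM + TBI rats 11.80, 12.06, 12.22 and 11.44. All 7 irradiated rats were below all 3 control rats, and the ranges of both irradiated groups overlapped. The mean was 12.67 ± 0.20 (SD, n = 3) in control, 11.60 ± 0.52 (SD, n = 3) in TBI and 11.88 ± 0.34 (SD, n = 4) in MASM + TBI.

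For Igfals the log2 difference between TBI and control was -1.07 (SE 0.28, 95% confidence interval -1.72 to -0.43, adjusted p = 0.0651 in limma), a 2.10-fold lower signal. Between MASM + TBI and control it was -0.80 (SE 0.26, 95% confidence interval -1.40 to -0.19, adjusted p = 0.165), a 1.74-fold lower signal. Within slide 1, MASM + TBI rat 3 minus the control mean was -0.46, which is also the value with slide as a fixed block (SE 0.27, adjusted p = 0.490), and the 3 rats on slide 3 gave -0.91. MASM + TBI and TBI differed by 0.28 (SE 0.26, adjusted p = 0.635), less than the SD among TBI rats. The TBI difference met the criterion in 3 of 20 settings, which were scaling to the 75th percentile (-1.02, adjusted p = 0.0418), leaving out dim probes (adjusted p = 0.0405) and slide as a random block (-1.12, adjusted p = 0.0152), in a range from 0.0152 to 0.341. Leaving out 1 rat at a time gave -1.26 to -0.78 for TBI minus control, with adjusted p from 0.0504 to 0.182.

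Igfbp3 encodes the binding protein of the large circulating complex, made in liver mainly by cells other than hepatocytes. Its brightest probe gave 14.26, 14.33 and 14.77 in control rats, 14.24, 14.35 and 14.52 in TBI rats and 14.65, 14.41, 14.36 and 14.21 in MASM + TBI rats. The groups overlapped, and both irradiated groups fell almost wholly inside the control range. The log2 difference from control was -0.08 (95% confidence interval -0.45 to 0.29) for TBI and -0.04 (95% confidence interval -0.39 to 0.30) for MASM + TBI, the latter 0.10 with arrays scaled to their 75th percentile. A second probe gave -0.27 (SE 0.21, adjusted p = 0.482 in limma) and -0.23 (SE 0.20, adjusted p = 0.655), with control rat 3 the highest rat for both probes.

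Igfbp4 encodes a binding protein that holds IGFs in an inactive form until a protease cleaves it. The brightest probe read 15.43, 15.44 and 15.60 in control rats, 15.22, 15.07 and 14.98 in TBI rats and 15.08, 15.22, 15.21 and 15.29 in MASM + TBI rats. All 7 irradiated rats were below all controls, and the irradiated groups overlapped. The log2 difference for TBI minus control was -0.40 (SE 0.10, adjusted p = 0.0489 in limma), past the p of the criterion and short of its fold at a 1.32-fold lower signal. That adjusted p ranged from 0.0117 to 0.256 over 21 settings and was 0.129 with arrays scaled to their 75th percentile. For MASM + TBI minus control the log2 difference was -0.29 (SE 0.09, adjusted p = 0.136), and MASM + TBI rat 3 minus the control mean within slide 1 was -0.28. With arrays scaled to their 75th percentile the Igfbp4 value for MASM + TBI minus control was -0.17 (adjusted p = 0.646, in a range over 22 settings from 0.0583 to 0.646). A second, dimmer probe gave 10.38, 10.63 and 11.05 in control rats, 10.41, 10.21 and 9.99 in TBI rats and 10.68, 10.24, 10.92 and 10.35 in MASM + TBI rats, with groups that overlapped and log2 differences from control of -0.49 (SE 0.23) for TBI and -0.14 (SE 0.21) for MASM + TBI.

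Igfbp1 encodes the binding protein whose liver transcript follows insulin, fasting and glucocorticoids within hours. The signal was 10.68, 12.49 and 10.91 in control rats, 13.41, 14.09 and 14.35 in TBI rats, and 13.81, 13.43, 14.41 and 10.28 in MASM + TBI rats. All TBI rats and MASM + TBI rats 1 to 3 were above all controls, while MASM + TBI rat 4 was below every other rat of the series. Control rat 2 stood above the other controls by more than 1 log2 unit. The mean was 11.36 ± 0.99 (SD, n = 3) in control, 13.95 ± 0.49 (SD, n = 3) in TBI and 12.98 ± 1.84 (SD, n = 4) in MASM + TBI.

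For Igfbp1 the log2 difference between TBI and control was 2.59 (SE 1.00, 95% confidence interval 0.30 to 4.88, adjusted p = 0.167 in limma), a 6.01-fold higher signal and the largest difference of any member in the 3 comparisons. Without MASM + TBI rat 4, which enters this comparison only through the spread that all groups share, the same difference had an adjusted p of 0.0370, in a range over 20 settings from 0.0370 to 0.332. Between MASM + TBI and control it was 1.62 (SE 0.94, adjusted p = 0.453), a 3.08-fold higher signal, and 2.52 without MASM + TBI rat 4. Within slide 1, MASM + TBI rat 3 minus the control mean was 3.04, and the rats on slide 3, which include rat 4, gave 1.15. MASM + TBI minus TBI was -0.97 (SE 0.94, 95% confidence interval -3.11 to 1.17, adjusted p = 0.640) and -0.07 without rat 4, so that the estimate for MASM rested on 1 rat.

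Igfbp2 encodes a binding protein that is abundant in fetal liver and low in adult liver. Readings were 5.06, 3.50 and 4.02 in control rats, 3.48, 5.20 and 5.43 in TBI rats and 5.83, 3.99, 5.46 and 4.28 in MASM + TBI rats. High and low rats occurred in every group, and the groups overlapped. The log2 differences from control were 0.51 (SE 0.69) for TBI and 0.70 (SE 0.64) for MASM + TBI, with 95% confidence intervals of -1.06 to 2.08 and -0.77 to 2.17. For Igfbp2 the TBI value was 0.15 without TBI rat 3 and 1.12 without TBI rat 1, the MASM + TBI value was 0.35 without control rat 2 and 1.13 without control rat 1, and normexp background correction gave 0.12 and 0.17. MASM + TBI rat 3 minus the control mean within slide 1 was 1.27 for Igfbp2, and for the members not given above it was -0.11 for Ghr, -0.12 for Stat5b, -0.21 for Cish and -0.09 for Igfbp3. Of the list genes below, Dio1 gave -0.63 and Cyp2c11 -0.96 in the same way.

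**Figure D2:**
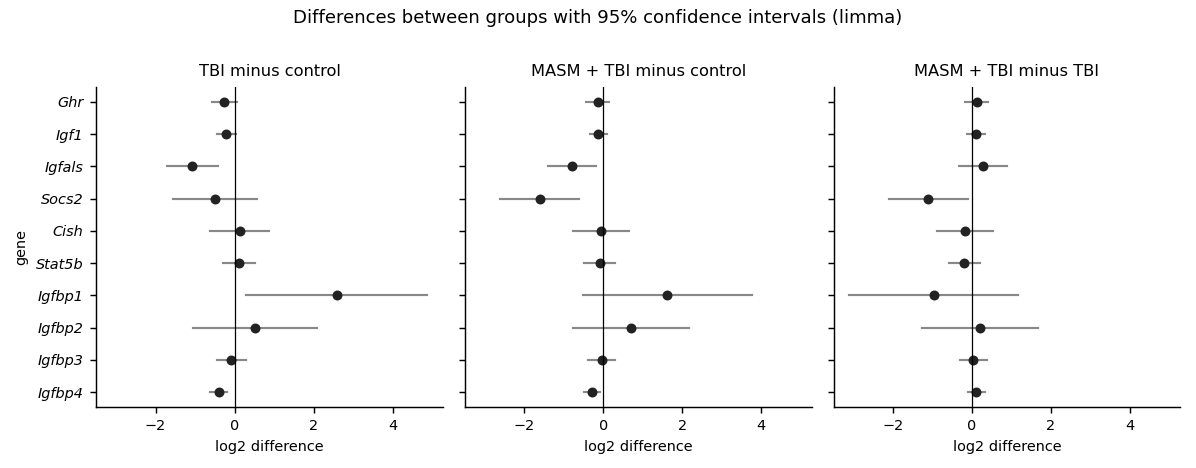
Log2 difference (horizontal axis) between groups for the 10 genes (vertical axis) in limma, with points for the estimates and lines for 95% confidence intervals, in 1 panel per comparison. The intervals of Igfals, Igfbp1 and Igfbp4 exclude 0 for TBI minus control, those of Igfals, Socs2 and Igfbp4 for MASM + TBI minus control and that of Socs2 for MASM + TBI minus TBI, before any adjustment for the number of probes.

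In bulk liver RNA, fewer cells of a type and less RNA per cell cannot be told apart for any of these genes. Of the 7 hepatocyte markers, 0 were called by limma in each comparison, with 0 past the unadjusted threshold and 0 by the methods' t-test. Their summed signal, led by Tf, was 20.02, 20.09 and 20.11 on the log2 scale in control rats, 19.94, 19.94 and 20.08 in TBI rats and 20.15, 20.10, 20.10 and 20.04 in MASM + TBI rats. The brightest of these markers lie at the top of the scale, where quantile normalization fixes the values, so the sum serves only as a check of the tissue label. Ttr, chosen after its values were seen, was lower in every irradiated rat than in every control, with log2 differences of -0.52 for TBI (adjusted p = 0.102) and -0.29 for MASM + TBI (adjusted p = 0.391). Serpina1 of the same list, also chosen after its values were seen, was higher in every irradiated rat than in every control, with log2 differences of 0.17 and 0.23.

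Markers of other liver cells were read beside the axis. Of 5 T cell markers, limma called 3 lower in TBI and 2 lower in MASM + TBI than in control, and their sum, led by Cd3d, was 9.13, 9.57 and 9.37 in control rats, 8.11, 7.79 and 8.69 in TBI rats and 8.44, 8.60, 7.67 and 8.38 in MASM + TBI rats. Cd3e, 1 of the 3, did not clear background on any array. Of 2 measured B cell markers out of 4 listed, 1 was called lower in both comparisons, with sums of 6.19, 4.99 and 4.83 in control rats, 2.85, 2.93 and 3.18 in TBI rats and 2.94, 3.02, 3.30 and 2.87 in MASM + TBI rats, led by Cd79b. Both lymphocyte sums were lower in each irradiated rat than in each control. In the comparison of MASM + TBI with TBI, limma called 0 of 5 T cell markers (1 unadjusted), 0 of 2 B cell markers (0 unadjusted) and 0 of 6 stellate cell and fibroblast markers (0 unadjusted). With slide as a fixed block the MASM + TBI calls of Cd79b (-2.68, adjusted p = 0.143, in a range over alternatives from 0.00106 to 0.247) and Cd3e (-1.74, adjusted p = 0.0673, in a range from 0.000784 to 0.200) were lost, that of Cd79b also with a replicate block (0.0582) and that of Cd3e also with scaling to the 75th percentile (0.0623). The methods' t-test called 0 markers of any list, and with normexp background correction the differences of Cd3e, Cd2 and Cd79b from control shrank below 1.5-fold. For Cd3g the log2 differences from control were -3.60 for TBI and -3.61 for MASM + TBI. With normexp they shrank to -1.02 and -1.03, and both still met the criterion. The MASM + TBI call of Cd3g also held with slide as a fixed block (-4.07, adjusted p = 0.0493, in a range over alternatives from 0.0000683 to 0.105). Cd3g cleared background on 3 of 3 control arrays, 2 of 3 TBI arrays and 1 of 4 MASM + TBI arrays.

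Of 6 stellate cell and fibroblast markers, 1, Lrat, was called lower in TBI (-0.62) and in MASM + TBI (-0.60). The TBI call held under 10 of 15 alternatives (adjusted p from 0.00224 to 0.231) and was lost without control rat 1 (-0.56) or TBI rat 1 (-0.57), with scaling to the 75th percentile (-0.57), a replicate block (0.0637) and the methods' t-test. The MASM + TBI call held under 8 of 16 (adjusted p from 0.00447 to 0.177) and was lost without control rat 1 (-0.53), MASM + TBI rat 1 (0.0511) or rat 4 (-0.57), with scaling to the 75th percentile (-0.50), normexp (-0.54), a replicate block (0.115), slide as a fixed block (0.129) and the methods' t-test. The sum of the list, led by Col3a1, was 13.84, 13.61 and 13.85 in control rats, 13.20, 13.45 and 14.15 in TBI rats and 13.41, 13.43, 13.23 and 13.31 in MASM + TBI rats. Limma called 0 of 5 Kupffer cell markers, 0 of 4 measured endothelial markers out of 5 listed, 0 of 2 measured bile duct markers out of 4 and 0 of 2 measured red blood cell markers out of 3 in each comparison. At the unadjusted threshold these 4 lists had 2 Kupffer cell markers lower in MASM + TBI than in TBI, and 1 red blood cell marker lower in TBI and 2 lower in MASM + TBI than in control. The red blood cell sum, led by Hbb, was 12.11, 11.85 and 10.81 in control rats, 9.90, 9.82 and 11.23 in TBI rats and 10.55, 9.90, 10.08 and 10.52 in MASM + TBI rats. Group means of the sums for control, TBI and MASM + TBI were 15.76, 15.94 and 15.35 for Kupffer cells, led by Clec4f, 13.82, 14.19 and 14.04 for endothelium, led by Kdr, and 8.86, 8.79 and 8.76 for bile duct cells, led by Epcam. The part of any of these cells in the values of the 10 genes was not tested.

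Growth hormone receptor signalling outside the 10 genes was read through 12 genes, all measured. Limma called 1 of 12 lower in TBI and 1 of 12 lower in MASM + TBI than in control, with 0 of 12 between MASM + TBI and TBI (2 of 12 unadjusted), and the methods' t-test called 0 in each comparison. The median log2 difference of the list was 0.04, -0.01 and -0.13 for TBI minus control, MASM + TBI minus control and MASM + TBI minus TBI. The phosphatases Ptpn6 and Ptpn11, among the brightest genes of this list, had means of 12.47 ± 0.19 and 11.22 ± 0.22 in control, 12.54 ± 0.27 and 11.36 ± 0.28 in TBI and 12.03 ± 0.06 and 11.26 ± 0.12 in MASM + TBI (SD). MASM + TBI values of Ptpn6 were all below those of both other groups.

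Of 4 other IGF ligand and receptor genes, limma called 1 between TBI and control, Igf2, lower, and 0 in both other comparisons (0 unadjusted against control, 1 against TBI, and 0 by the methods' t-test). Igf2, which encodes the fetal growth factor IGF-2, read 7.20, 6.76 and 7.01 in control rats, 5.85, 6.11 and 5.76 in TBI rats and 6.16, 6.80, 6.93 and 6.32 in MASM + TBI rats. The TBI rats were below all other rats, and MASM + TBI rats 2 and 3 were inside the control range. The log2 difference for TBI minus control was -1.08 (SE 0.22, adjusted p = 0.0306 in limma), a 2.12-fold lower signal, and for MASM + TBI minus control -0.44 (SE 0.21, adjusted p = 0.337). Within slide 1 that value was -0.06, which is also the value with slide as a fixed block (adjusted p = 0.971, in a range over 21 settings from 0.135 to 0.971), and with normexp background correction it was -0.22. The TBI call held in 11 of 20 settings and was lost without each of the control and TBI rats in turn (adjusted p = 0.050 to 0.0926), with the methods' t-test (0.224), with a replicate block (0.0904) and with normexp background correction, where the difference of -0.49 was under 1.5-fold. The receptors Igf2r and Insr, for IGF-2 and insulin, had means of 11.40 ± 0.25 and 7.22 ± 0.22 in control, 11.46 ± 0.09 and 6.80 ± 0.53 in TBI and 11.56 ± 0.06 and 6.92 ± 0.15 in MASM + TBI (SD).

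Of 7 other binding proteins and binding protein regulators, 4 had a probe and limma called 0 of 4 in each comparison, with 0 at the unadjusted threshold and 0 by the methods' t-test. Only Igfbp6 among them was well above background on all 10 arrays, at 6.14 ± 1.21 in control, 5.50 ± 0.38 in TBI and 5.32 ± 0.43 in MASM + TBI (SD). Control rat 3, at 7.54, set that control mean. Stc2 and Igfbp5 did not clear background on any array, and Stc1 did on 1.

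Liver genes known to depend on growth hormone or its sex-specific pattern in rats were read through 11 of 12 listed genes. Limma called 1 of 11 between TBI and control, Dio1, lower, and 0 of 11 in both other comparisons (2 of 11 unadjusted against control, 1 of 11 against TBI, and 0 by the methods' t-test). Dio1, the deiodinase that activates thyroid hormone, read 12.81, 12.54 and 12.96 in control rats, 11.75, 11.40 and 12.07 in TBI rats and 11.98, 11.51, 12.14 and 12.11 in MASM + TBI rats. All irradiated rats were below all controls. The log2 difference was -1.03 (SE 0.22, adjusted p = 0.0350 in limma) for TBI and -0.84 (SE 0.21, adjusted p = 0.0744) for MASM + TBI relative to control. For TBI the call held in 12 of 20 settings, and it was lost without control rat 1, 2 or 3, TBI rat 1 or 2, or MASM + TBI rat 1 (adjusted p = 0.0576 to 0.114), with only the arrays of both groups (0.0778) and with the methods' t-test (0.259). For MASM + TBI the criterion was met in 3 of 21 settings, with adjusted p from 0.0248 to 0.352.

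Cyp2c11, the male-specific steroid hydroxylase that depends on pulses of growth hormone, is among the brightest genes of that list. It read 17.28, 16.84 and 17.11 in control rats, 16.53, 15.04 and 15.27 in TBI rats and 15.59, 15.49, 16.12 and 16.35 in MASM + TBI rats. Each irradiated rat was below each control, with TBI rats 2 and 3 the lowest. The log2 difference was -1.46 (SE 0.39, adjusted p = 0.0683 in limma) for TBI and -1.19 (SE 0.37, adjusted p = 0.135) for MASM + TBI relative to control, which met the criterion in 4 of 20 settings (adjusted p from 0.0135 to 0.376) and 1 of 21 (0.0429 to 0.312), in both cases including the one without TBI rat 1, with -1.92 (0.0135) and -1.19 (0.0429). Cyp2c13 and Cyp3a2, the other male-predominant cytochromes P450 named by brightness, had means of 16.99 ± 0.05 and 16.84 ± 0.25 in control, 16.91 ± 0.11 and 16.72 ± 0.33 in TBI and 16.93 ± 0.17 and 17.02 ± 0.16 in MASM + TBI (SD). The male-pattern genes of the list therefore did not share a difference of the size seen for Cyp2c11.

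Bcl6 and Onecut1 were chosen after their values were seen, for the size of their estimates. Bcl6, a repressor that occupies many STAT5 sites in male liver, read 12.86, 11.72 and 12.50 in control rats, 9.08, 11.60 and 8.61 in TBI rats and 12.22, 10.88, 10.78 and 12.20 in MASM + TBI rats. TBI rats 1 and 3 were far below all other rats, while TBI rat 2 was near the controls. The log2 difference was -2.59 (SE 0.79, adjusted p = 0.0962 in limma) for TBI minus control, and -3.51 without TBI rat 2 (adjusted p = 0.020, in a range over 20 settings from 0.020 to 0.40). For MASM + TBI minus TBI it was 1.76 (SE 0.74, adjusted p = 0.274), and 1.18 without TBI rat 3 and 2.67 without TBI rat 2. Onecut1, a hepatocyte factor induced by growth hormone, had a log2 difference of 1.82 (SE 0.84, adjusted p = 0.234) for TBI minus control, with 10.72, 12.58 and 10.58 in control rats, 13.05, 11.86 and 14.43 in TBI rats and 11.20, 12.76, 12.03 and 10.47 in MASM + TBI rats. The groups of Onecut1 overlapped, and its estimate was 1.16 without TBI rat 3 and 2.46 without control rat 2.

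**Figure D3:**
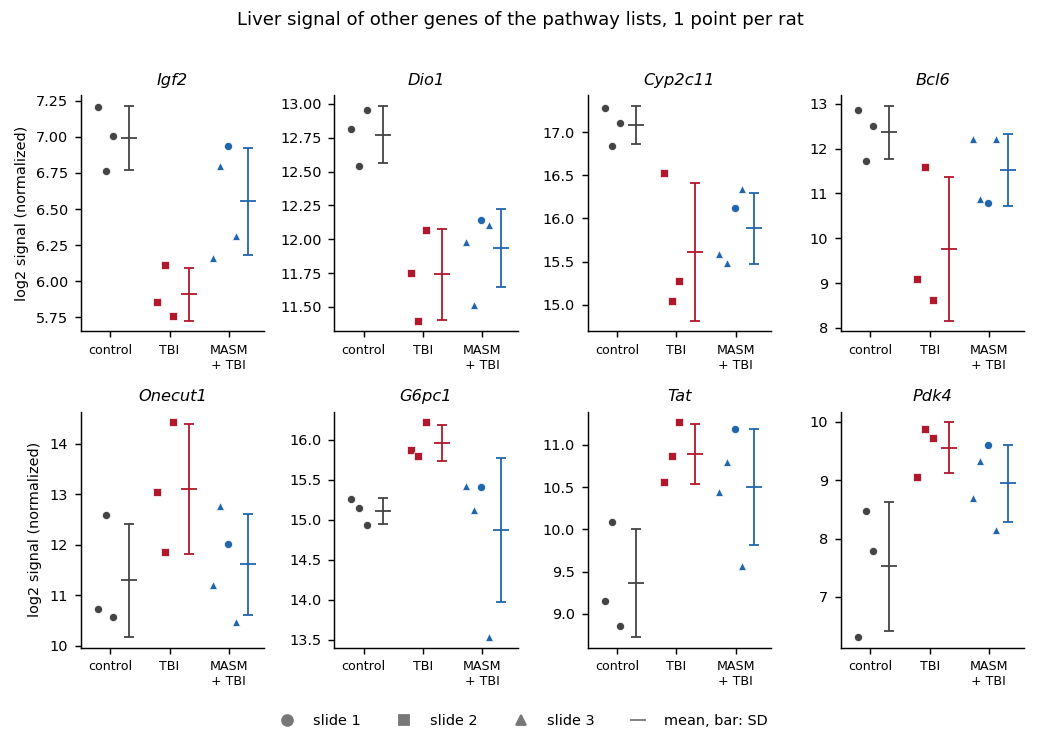
Normalized log2 signal (vertical axis) of 8 genes of the pathway lists in each rat, by group on the horizontal axis, with mean and SD beside the points and the slide shown by the symbol. Dio1 and Cyp2c11 are below all control rats in each of the 7 irradiated rats, and MASM + TBI rat 4 is at 13.53 for G6pc1, with a separate vertical scale in each panel.

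Insulin and fasting response genes were read through 7 of 9 listed genes because Igfbp1 shares their known regulation. Limma called 0 of 7 in each comparison, with 3 of 7 higher in TBI and 3 of 7 higher in MASM + TBI than in control at the unadjusted threshold, 1 of 7 lower in MASM + TBI than in TBI, and 0 by the methods' t-test. The list medians were 0.85 for TBI minus control, 0.74 for MASM + TBI minus control and -0.04 for MASM + TBI minus TBI on the log2 scale. G6pc1, the last enzyme of glucose release, read 15.25, 15.15 and 14.94 in control rats, 15.87, 15.80 and 16.22 in TBI rats and 15.43, 15.12, 15.41 and 13.53 in MASM + TBI rats. TBI rats were above all others, and MASM + TBI rat 4 was below all others, as for Igfbp1. The log2 difference was 0.85 (SE 0.46, adjusted p = 0.305 in limma) for TBI minus control, and its adjusted p was 0.0275 without MASM + TBI rat 4, in a range over 20 settings from 0.0275 to 0.491. For MASM + TBI minus TBI it was -1.09 (SE 0.43, adjusted p = 0.245), and -0.64 without that rat.

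Tat, which breaks down tyrosine under glucocorticoid and fasting control, read 9.16, 10.08 and 8.86 in control rats, 10.56, 10.86 and 11.27 in TBI rats and 10.45, 10.80, 11.18 and 9.57 in MASM + TBI rats. Its log2 difference for TBI minus control was 1.53 (SE 0.45, adjusted p = 0.0885 in limma). Pck1, the gluconeogenic enzyme that is also among the brightest genes of the list, had a mean of 14.86 ± 0.20 in control, 14.66 ± 0.26 in TBI and 14.62 ± 0.21 in MASM + TBI (SD). Pdk4, a fasting-induced kinase chosen after its values were seen, had a log2 difference of 2.03 (SE 0.57, adjusted p = 0.0793) for TBI minus control, from 6.31, 8.47 and 7.79 in control rats to 9.06, 9.88 and 9.73 in TBI rats, with 8.70, 9.34, 9.60 and 8.14 in MASM + TBI rats. Pdk4 met the criterion in 4 of 20 settings (adjusted p from 0.0260 to 0.365), with estimates from 1.33 under normexp to 2.51 without control rat 2, and Tat in 2 of 20 (adjusted p from 0.0324 to 0.298), with estimates from 1.28 to 1.89. Over the 7 genes, MASM + TBI rat 4 was the lowest of its group for 4, namely Pck1, G6pc1, Pdk4 and Tat, and the highest for 1. Control rat 2, the highest control for Igfbp1, was the highest control for 3, Pck1, Pdk4 and Tat, and the lowest for 2. These ranks were examined after the values were seen and are a description of the rats, with no test.

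The promoters of 9 of the 10 genes were in the RefSeq promoter table (build GRCr8), and Socs2 was not. The 250 bases before each start were searched on both strands for TTCNNNGAA, the palindromic form of STAT binding sites, for CAAAACAA, a core of insulin response sequences, and for TGTTTAC, a forkhead motif. Among 33469 promoters of the same length, 7.67% held the first, 1.94% the second and 3.21% the third, and no match in these 9 promoters overlapped another. Cish held TTCNNNGAA at 4 places, starting 241, 230, 136 and 119 bases before the start. Igfbp1 held CAAAACAA once, 121 bases before the start, and Igf1 once, 67 bases before it. The other 6 promoters held none of the 3 in this window, and a match or its absence is a description of the letters only.

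Both stretches are shown because they hold the motifs of the growth hormone branch and of the insulin branch of the axis, while the liver signal of Cish overlapped between groups and that of Igfbp1 differed most between TBI and control. Capitals mark TTCNNNGAA in Cish at chr8:116850719-116850968 and CAAAACAA in Igfbp1 at chr14:86261027-86261276, both on the plus strand of GRCr8, 5′ to 3′ and ending at the base before the start.
Cish: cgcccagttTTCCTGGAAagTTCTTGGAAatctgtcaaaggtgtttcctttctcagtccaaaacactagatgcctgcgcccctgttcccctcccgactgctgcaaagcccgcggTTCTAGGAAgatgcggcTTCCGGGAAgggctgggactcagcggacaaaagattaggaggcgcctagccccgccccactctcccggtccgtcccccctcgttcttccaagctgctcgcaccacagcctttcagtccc
Igfbp1: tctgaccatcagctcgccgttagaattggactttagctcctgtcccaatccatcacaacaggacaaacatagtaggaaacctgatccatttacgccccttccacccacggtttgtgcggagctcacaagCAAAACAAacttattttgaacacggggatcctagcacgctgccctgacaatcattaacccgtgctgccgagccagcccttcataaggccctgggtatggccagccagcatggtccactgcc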

How the data were processed

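Each rat had 1 one-colour Agilent array. The deposited scanner files (Feature Extraction 10.7.3.1) give the processed spot intensity that the authors took from the scans with background subtracted, and the deposited value table holds the same intensity values (largest relative difference 0). Control spots (1639 of 45018) and 76 to 112 outlier spots an array were left out, 0 spots were saturated, spots of a probe were averaged, and values were put on the log2 scale and quantile normalized, as the methods name it. From 41012 probes, 67 with missing values were dropped.

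The remaining 40945 were fitted in R 4.3.3 with limma 3.58.1, with a mean for each group and 1 shared spread (prior degrees of freedom 1.43), and p was adjusted by Benjamini-Hochberg over all of them. A call needed an adjusted p under 0.05 and a 1.5-fold change. Symbols came from RefSeq accessions (16950 probes). Correlations between rats of a group were 0.983 to 0.985 in control, 0.978 to 0.983 in TBI and 0.982 to 0.985 in MASM + TBI.

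The genes named are the 10 members and, from 5 pathway lists and 8 marker lists, those called and up to 3 of the brightest, with exceptions stated where they occur. Some genes of these lists enter the counts, medians and sums and are not reported here by name. The members and lists were chosen with earlier results of these data known. Marker sums add normalized signals on the linear scale. Alternatives tried were the 75th percentile for scaling, normexp correction (offset 50; on median intensity, since the files hold no means), the deposited value table, leaving out dim probes, the methods' t-test (a variance for each group, with p adjusted as above and, chosen after seeing the data, unadjusted), fitting only the arrays compared, a prior with trend and robust estimation, a replicate block, slide as a random and as a fixed block, the mean of all probes of a gene, limma at the unadjusted threshold of the methods and leaving out each rat. The fit was tested on simulated data with known changes, of which it called a part, none with the wrong sign. A search for genes with values like those of a called member was not made, since 0 members were called. Motifs were counted with Python 3.11.15 and figures drawn with matplotlib 3.10.9.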

Additional observations from a re-analysis of the deposited data

Results flagged for a closer look

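In the MASM + TBI group of 4 rats, 1 rat lay far from the other 3 for 4 of the 48 genes checked, by a gap above the 95% limit of Dixon's ratio of gap to range for 4 values. Chance gives such a gap in about 1 in 20 groups. G6pc1 was 13.53 in MASM + TBI rat 4 (gap 0.838 of the range) and Pck1 was 14.31 in the same rat (0.857), both the lowest of the group. Igf1r was 3.43 in MASM + TBI rat 3 (0.928) and Igfbp5 was 1.89 in that rat (0.861), where Igfbp5 did not clear background on any array and Igf1r did on only 1 of 3 control arrays and 2 of 4 MASM + TBI arrays. None of the 10 members passed this limit. Groups of 3 rats were not checked.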

How the results depend on the processing

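Over all 40945 probes, limma called 1842 for TBI minus control, 963 for MASM + TBI minus control and 570 for MASM + TBI minus TBI, with 0 of the 10 members in each (2, 2 and 1 at an unadjusted p, 0 by the adjusted methods' t-test). In the same order of comparisons, the counts moved by more than 1.5 times were 553, 455 and 79 with normexp background correction, 10, 28 and 3 with the methods' t-test at an adjusted p, 4078, 1805 and 1401 with slide as a random block, and 5166, 3301 and 3267 for limma at the unadjusted threshold of the methods. The t-test above was adjusted. The methods' t-test at an unadjusted p, which joins their test and threshold and was chosen after seeing the data, gave 2900, 2354 and 1649, with 1 (Igfbp1), 2 (Igfals, Socs2) and 0 members. With only the arrays of both groups compared, they were 943 for TBI against control and 255 for MASM + TBI against TBI. With slide as a fixed block, 525 were called between MASM + TBI and control, 376 higher and 149 lower, against 379 higher and 584 lower without it.

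Scaling to the 75th percentile gave 6950 calls between TBI and control, 1609 higher and 5341 lower (821 and 1021 with quantile normalization), and 5137 between MASM + TBI and TBI, 4238 higher and 899 lower (314 and 256). The median log2 difference of all probes was -0.07, -0.01 and 0.08 under that scaling and -0.03, 0.00 and 0.04 under quantile normalization. With normexp, 68 of the calls between MASM + TBI and TBI were higher and 11 lower. The cause was not tested.

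Among the members, 1 was called between TBI and control with scaling to the 75th percentile, without dim probes and with slide as a random block (Igfals each time), and 2 at the unadjusted threshold of the methods (Igfals, Igfbp1). Between MASM + TBI and control, 1 was called with only the arrays of both groups compared and with slide as a random block (Socs2 each time), and 2 at the unadjusted threshold (Igfals, Socs2). At that threshold 1 was called between MASM + TBI and TBI (Socs2). The estimated correlation within a slide was -0.133, and a negative value narrows the errors of the random block. Signs reversed with scaling to the 75th percentile for Ghr (0.00179) and Igfbp3 (0.10), both for MASM + TBI against control. The cause was not tested.

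Leaving out 1 rat at a time gave 914 (without control rat 3) to 2312 (without TBI rat 3) calls for TBI against control, 461 (without control rat 2) to 1044 (without TBI rat 3) for MASM + TBI against control and 240 (without MASM + TBI rat 1) to 1084 (without TBI rat 3) for MASM + TBI against TBI. Members called ranged from 0 to 1 in both comparisons with control. In these fits a group keeps at least 2 rats. The sign depended on the rat left out for these estimates. For TBI against control they were Stat5b (-0.10 to 0.26), Cish (-0.21 to 0.41) and Igfbp3 (-0.18 to 0.0782). For MASM + TBI against control they were Stat5b (-0.30 to 0.0600), Cish (-0.17 to 0.0935) and Igfbp3 (-0.14 to 0.11). For MASM + TBI against TBI they were Ghr (-0.0397 to 0.25), Igf1 (-0.0171 to 0.14), Igfals (-0.0199 to 0.47), Cish (-0.47 to 0.16), Igfbp2 (-0.42 to 0.55) and Igfbp3 (-0.0450 to 0.11). Signs of Igfals, Igfbp1, Igfbp4 and Socs2 relative to control held in every setting tried, though Socs2 for TBI against control came as near to no difference as -0.00758. The same held for Igf1 and for the dim Igfbp2 (0.12 to 1.12 for TBI and 0.17 to 1.27 for MASM + TBI against control). It also held for Ghr in TBI against control (-0.50 to -0.11).

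Rats with the same number in different groups share only that number. Their deviations from the group means had correlations from -0.125 to 0.169. With a replicate block the calls were 1026, 298 and 22, the members called were 0 in each comparison, and Igfbp3 was 0.0221 for MASM + TBI against control, of opposite sign.

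Igfbp2 was not well above background on 1 control array, and of all probes fitted 21339 were well above it on every array, so differences of dim probes depend on how background was subtracted.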
